A study of Arabidopsis thaliana with 4 samples.

Results

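The 31 genes described here encode the enzymes and regulators of tetrapyrrole synthesis in Arabidopsis thaliana, from glutamyl-tRNA to protoporphyrin and on to chlorophyll and heme. They were a fixed list of loci not selected by their response, although earlier results of these data were known when it was chosen. They were looked up in a gene table of 33538 entries. Each of the 31 had 1 entry that named it alone, and all 31 were among the 20786 tested entries that name a gene. The seedlings carried mutations in both SRT1 and SRT2, which encode sirtuins (NAD-dependent histone deacetylases), in the Col background. The deposited workbook is titled for both genes but the table in it for SRT1 alone, and the labels were followed. The seedlings were etiolated, having grown for 3 days in the dark at 24 °C, and the RNA came from seedlings. Treatment lasted 4 hours, with hydrocarbon-free air alone (2 libraries) or with 10 ppm ethylene added to it (2 libraries). Both groups carry the double mutation and no wild-type seedlings were analysed here, so no response can be assigned to the sirtuins.

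The authors pooled the libraries of each condition into 1 value per gene, in FPKM, a fragment count divided by transcript length and by the mapped total. Values below are therefore given for air and for ethylene, without a replicate spread, and where a pair of levels is given the first is air. Depth per library is unknown. A gene was called when the q of the authors' Cuffdiff test was 0.05 or less. Whether the 2 libraries of a condition were grown and harvested apart is not stated in the labels, so that test may rest on technical spread. Standard errors (SE) are those of the log2 ratio of ethylene to air, obtained by dividing the ratio by the authors' test statistic, and 95% intervals reach 1.96 SE to each side. SRT1 had 3.88 FPKM in air against 3.23 under ethylene, and SRT2 had 1.92 against 2.09. Neither was called, and without wild type these levels do not check the genotype.

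Plants make tetrapyrroles from glutamate, largely in the plastid, by way of 5-aminolevulinic acid and protoporphyrin. Insertion of magnesium leads to chlorophyll, and insertion of iron leads to heme and, through heme oxygenase, to the chromophore of phytochrome. In a dark-grown flowering plant the magnesium branch stops at protochlorophyllide, because protochlorophyllide oxidoreductase (POR) needs light for its reaction. The plant stores a complex of POR with its substrate for the moment it reaches light, and free protochlorophyllide is phototoxic. Work in wild-type Arabidopsis has placed PORA and PORB under the ethylene-activated factors EIN3 and EIL1 together with PIF1.

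Of the 31 genes, PORA and PORB rose under ethylene, and the other 29 were not called in either direction. The 2 called genes are 6.45% of the list, against 11.3% of all tested entries that name a gene, or 4.79% if only higher calls are counted. Among the entries within the members' range of mean FPKM, 13.6% were called in either direction. A stricter q of 0.01 called 1 member, PORA, against 8.14% of all tested entries. When the authors' statistic was read against a normal curve instead, 0 members were called, against 5.78% of all tested entries. The share of members called was thus close to the background or below it. Since the promoters of PORA and PORB are compared below, their sequence upstream of the gene is shown first. The stretches are given 5′ to 3′ on the strand of the gene, read from the TAIR10.1 genome. They take the 250 bases before the annotated gene start and leave out bases that belong to the gene's own table entry or to a neighbouring annotated gene. Capitals mark runs of at least 10 bases that PORA and PORB share exactly. The first capital block joins 2 runs of 11 bases that overlap to a different extent in each gene. That block as a whole is therefore not identical and is longer in PORB.
PORA, chr5:21992852-21993064, minus strand: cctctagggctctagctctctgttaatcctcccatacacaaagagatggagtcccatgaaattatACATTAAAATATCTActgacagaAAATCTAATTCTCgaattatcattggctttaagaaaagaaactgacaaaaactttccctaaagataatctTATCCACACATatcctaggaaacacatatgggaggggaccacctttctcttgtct
PORB, chr4:13725360-13725523, plus strand: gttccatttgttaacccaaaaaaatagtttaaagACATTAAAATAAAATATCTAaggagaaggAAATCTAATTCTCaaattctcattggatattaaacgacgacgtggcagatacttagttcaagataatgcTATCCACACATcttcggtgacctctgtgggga

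PORA (AT5G54190, chromosome 5, 21990575 to 21992851 in the authors' table, TAIR10) encodes the POR isoform typical of etiolated tissue. Its level was 397 FPKM in air and 583 FPKM after ethylene. The rise was 46.8%, with a log2 ratio of 0.55, an SE of 0.21 and an interval of 0.15 to 0.96. The Cuffdiff q in the authors' deposited table was 0.00088. PORB (AT4G27440, chromosome 4, 13725524 to 13728918), the isoform found both in the dark and in the light, went from 701 FPKM in air to 981 FPKM. That is a rise of 39.9%, with a log2 ratio of 0.48, an SE of 0.23, an interval of 0.04 to 0.93 and a Cuffdiff q of 0.026. PORB was the most abundant of the 31 members and ranked 99 among all tested entries by mean FPKM, and PORA ranked 213. Both calls were made on the p that Cuffdiff gave. Read from the statistic and a normal curve, q was 0.101 for PORA and 0.315 for PORB, and neither was called.

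PORC (AT1G03630), the isoform that accumulates in light-grown plants, had 31.8 FPKM in air and 30.5 FPKM under ethylene. Its log2 ratio was -0.06, with an interval of -0.53 to 0.42. In air PORA was 12.5 times and PORB 22.0 times as abundant as PORC on the FPKM scale, which is per length. In ethylene these ratios were 19.1 and 32.1. The log2 ratio of PORA exceeded that of PORC by 0.61, with an interval of -0.01 to 1.23, and that of PORB exceeded it by 0.54, with an interval of -0.11 to 1.19. Both intervals include 0, so with these SEs a difference in response between PORC and the dark-expressed isoforms was not established. The SEs come from the authors' statistic, a wider reading than the p behind the calls, by a median factor of 1.43. Intervals on the scale of that p were not computed, so the outcome may depend on this choice. PORA and PORB differed from each other by 0.07, with an interval of -0.53 to 0.67. The summed FPKM of the 3 isoforms went from 1129 to 1594, and PORC made up 2.81% of it in air and 1.92% in ethylene.

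The PORA and PORB values rest on reads that may not be fully separable. The longest exact run shared by their annotated transcripts was 48 bases, against 18 for PORA with PORC and 20 for PORB with PORC. The same limit holds for HEMA1 with HEMA2 (49 bases), CHLI1 with CHLI2 (44) and GSA1 with GSA2 (38). The HEME, HEMG and FC pairs shared at most 21 bases. The read length is not given in the sources used here. PORB also ends opposite AT4G27450, a gene on the other strand whose annotated span overlaps it by 71 bases. The authors' entry for PORB is longer than the annotated gene, 3395 bases against 1895. It runs to 13728918, past the annotated end at 13727440, and its span overlaps the entry of AT4G27450. That gene had 160 FPKM in air against 238 FPKM under ethylene and was not called (Cuffdiff q of 0.472). The strand setting of the counting is not given, and the part of either in the rise was not tested. Among tested entries that do not overlap PORA or PORB, the 8 nearest were taken, 2 on each side of each gene, of which 2 share the locus and span of AT4G27460. None of the 8 was called, beside 11.3% of all tested entries that name a gene, and their lowest Cuffdiff q was 0.162. So few entries cannot show that the surroundings were unchanged. AT5G54225 was at 0.441 FPKM in air and 5.31 FPKM under ethylene, and 1 entry of AT4G27460 at 11.8 and 6.12 FPKM.

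**Figure D1:**
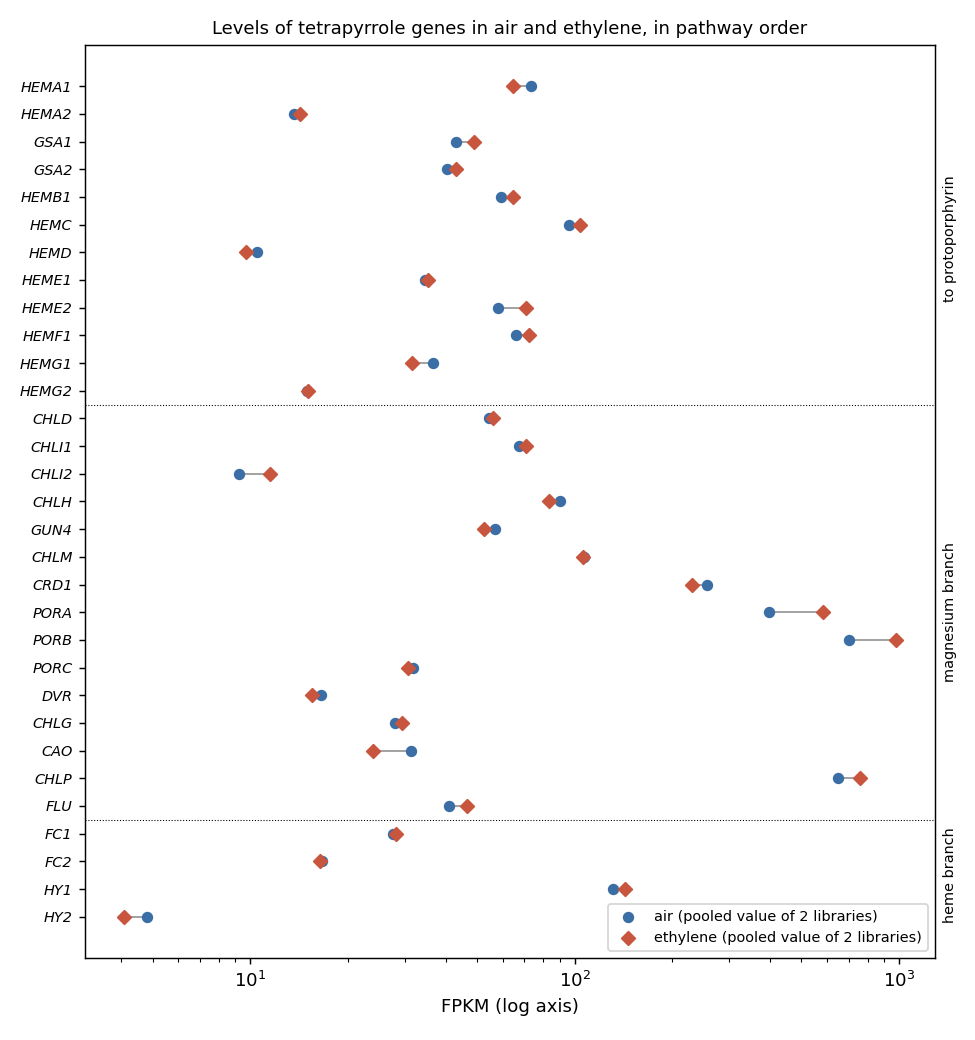
Level of each of the 31 genes in FPKM on a log axis, in pathway order, with a circle for air and a diamond for ethylene, each a pooled value of 2 libraries without an error bar. PORA and PORB show the widest gaps at high level, from 397 to 583 FPKM and from 701 to 981 FPKM, while most other pairs of points nearly coincide.

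The shared promoter runs lay in the same order in both genes. The run AAATCTAATTCTC was 162 to 150 bases before the annotated start of PORA and 123 to 111 bases before that of PORB. It occurred on either strand in the 250-base windows of 3 of 27443 protein-coding genes, PORA and PORB among them. The run TATCCACACAT lay 92 to 82 bases before PORA and 54 to 44 bases before PORB, and was held by 11 windows, or 0.0401% of all. The AT-rich runs ACATTAAAATA and TAAAATATCTA, which overlap each other in both genes, were held by 45 and 44 windows. None of the 4 runs was in the PORC window. These runs were picked out after the sequences had been compared.

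Motifs of known factors, 4 in all, were searched for on both strands of the same windows. The G-box CACGTG, bound by PIF and HY5 factors, was in 6.49% of all windows and in 5 of the 31 members (CAO, CRD1, FC2, HEMD and HY2). The related CACATG was in 11.1% of windows and in 2 members, CAO and CHLI2. ATGTA, a core found in EIN3 binding sites, was in 52.0% of windows and in 16 members. CCAATC, recognised by GLK factors, was in 10.2% of windows and in 3 members, GSA2, GUN4 and PORB. The PORA window held ATGTA once, on the minus strand of the window 186 to 182 bases before the start, and none of the other 3 motifs. The PORB window held CCAATC at 219 to 214 and at 22 to 17 bases before the start, both outside the printed stretch, and none of the other 3. None of these matches shared bases with another. The PORC window held none of the 4.

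The 12 genes from glutamyl-tRNA to protoporphyrin stayed close to their levels in air. None was called by Cuffdiff and none had an unadjusted p of 0.05 or less, and all 12 were within 1.3-fold. Their median log2 change, computed as log2((ethylene FPKM + 1)/(air FPKM + 1)), was 0.08. HEMA1 encodes glutamyl-tRNA reductase, the committed and most regulated step, and had 73.5 FPKM in air and 64.4 FPKM under ethylene. Its log2 ratio was -0.19 with an interval of -0.61 to 0.23. HEMA2, its paralogue, had 13.6 and 14.3 FPKM. GSA1 and GSA2, the aminotransferases that complete 5-aminolevulinic acid, were nearly equal to each other. GSA1 stood at 42.9 FPKM (air) and 48.8 FPKM (ethylene), and GSA2 at 40.5 and 43.2.

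The next enzymes join molecules of 5-aminolevulinic acid into the ring and oxidise it. HEMB1, 5-aminolevulinic acid dehydratase, had 59.1 FPKM (air) and 64.4 FPKM (ethylene). HEMC, porphobilinogen deaminase, was the most abundant transcript of this section at 95.9 and 104 FPKM. HEMD, uroporphyrinogen III synthase, was the least abundant at 10.5 and 9.70 FPKM. The decarboxylase gene HEME2 had the largest value of the section in ethylene relative to air, with 58.0 FPKM in air and 70.7 in ethylene. Its log2 ratio was 0.28 with an interval of -0.14 to 0.71, and its Cuffdiff q was 0.271. Its paralogue HEME1 was at 34.6 and 35.3 FPKM. HEMF1, coproporphyrinogen oxidase (LIN2 in the annotation), was at 65.9 and 72.2 FPKM. The protoporphyrinogen oxidase genes were at 36.6 and 31.5 FPKM for HEMG1 and at 14.9 and 15.0 FPKM for HEMG2.

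**Figure D2:**
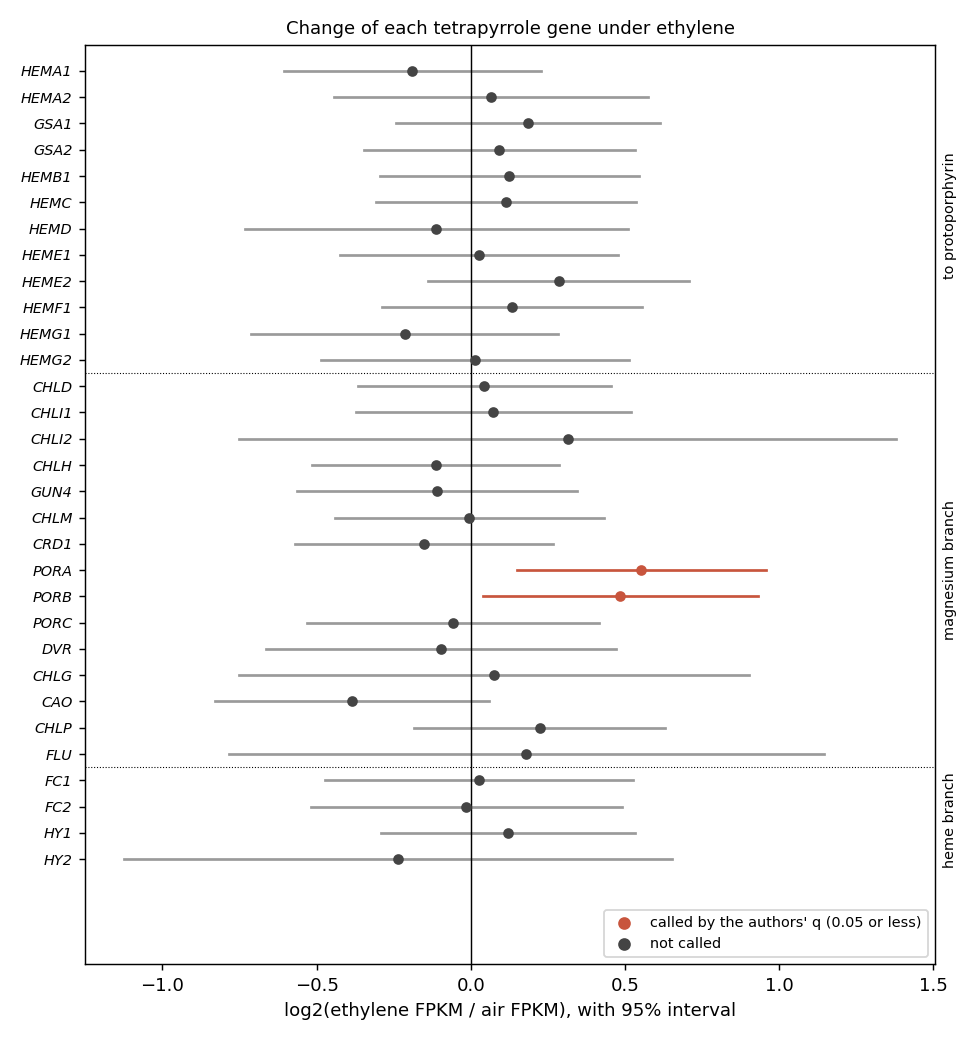
Log2 ratio of ethylene to air FPKM for each of the 31 genes, with bars for 95% intervals from the standard errors read off the authors' statistic; the 2 called genes are coloured. Only the bars of PORA and PORB lie wholly to the right of 0, and those of the other 29 genes cross it.

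Magnesium chelatase, which commits protoporphyrin to chlorophyll, showed no called change in any subunit. CHLH, the porphyrin-binding subunit (GUN5 in the annotation), had 90.1 FPKM in air and 83.3 FPKM under ethylene, and CHLD had 54.3 and 56.0 FPKM. CHLI1, the main ATPase subunit, was at 67.5 and 71.1 FPKM, and its minor paralogue CHLI2 at 9.24 and 11.5 FPKM. GUN4, which stimulates the chelatase, was at 56.8 and 52.7 FPKM. The summed FPKM of these 5 genes went from 278 to 275. The CHLI2 entry overlaps that of AT5G45940 on the opposite strand, which was called higher, from 36.8 to 87.5 FPKM, and the interval of the CHLI2 log2 ratio was wide, from -0.75 to 1.38.

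Between the chelatase and POR lie a methyltransferase and the cyclase. CHLM, the methyltransferase, stood at 107 FPKM (air) and 106 FPKM (ethylene), with a log2 ratio of 0.00 and an interval of -0.44 to 0.43. CRD1, a subunit of the cyclase that closes the fifth ring, was at 256 and 231 FPKM and was the fourth most abundant member. DVR, which reduces the 8-vinyl group, was at 16.6 and 15.5 FPKM. FLU, which restrains 5-aminolevulinic acid synthesis in the dark, was at 41.1 and 46.6 FPKM, with an interval of the log2 ratio from -0.79 to 1.15. Of these 4 genes none was called, beside 11.3% of all tested entries that name a gene.

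Of the genes that act after the light-dependent step, CAO showed the lowest ratio of all 31 members. It encodes chlorophyllide a oxygenase, which makes chlorophyll b, and had 31.2 FPKM in air and 23.9 FPKM under ethylene. Its log2 ratio was -0.38, with an SE of 0.23 and an interval of -0.83 to 0.06. The unadjusted Cuffdiff p of CAO was 0.0171 and its q 0.112, so it was not called. CHLP, geranylgeranyl reductase, which supplies the phytyl tail, had 650 FPKM in air against 758 FPKM under ethylene. It ranked 127 among all tested entries, between PORB and PORA, and its log2 ratio of 0.22 had an interval of -0.18 to 0.63. CHLG, chlorophyll synthase, was at 27.9 and 29.4 FPKM. The span of its entry overlaps that of AT3G51810, which was called lower, from 222 to 52.7 FPKM, although the annotated genes do not overlap.

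PORA, PORB and CHLP were the 3 most abundant transcripts of the pathway. Together they made up 53.6% of the summed FPKM of the 31 genes in air and 60.4% in ethylene. PORA and PORB alone went from 33.6% to 40.7%. The summed FPKM of all 31 went from 3263 to 3844, a difference of 17.8%. Without PORA and PORB it went from 2165 to 2281, a difference of 5.33%.

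The heme branch also showed no called change in its 4 genes, and none had an unadjusted p of 0.05 or less. The ferrochelatases insert iron into protoporphyrin. FC1, the isoform found in all tissues, had 27.6 FPKM (air) and 28.1 FPKM (ethylene), and FC2, the isoform of photosynthetic tissue, had 16.6 and 16.4 FPKM. HY1, the plastid heme oxygenase (TED4 in the annotation), was at 131 and 143 FPKM. HY2, phytochromobilin synthase, which completes the phytochrome chromophore, was the lowest of the 31 members at 4.80 and 4.08 FPKM. Its interval was among the widest, from -1.13 to 0.65 on the log2 ratio scale.

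Within the 7 small families each member's share of the summed FPKM is given for air and then for ethylene. HEMA1 made up 84.3% of the HEMA total in air and 81.9% in ethylene, and CHLI1 88.0% and 86.1% of the CHLI total. The GSA genes were nearly even, with GSA1 at 51.4% and 53.0%. HEME2 held 62.6% and 66.7%, HEMG1 71.0% and 67.7%, and FC1 62.4% and 63.1%. In the POR family PORB held 62.0% and 61.5%. In none of the 9 pairs compared did the interval of the difference in log2 ratio leave out 0, with SEs from the statistic, the wider reading. Those intervals treat the estimates for a pair as independent, although both come from the same libraries. As with PORA and PORB, reads of the HEMA, CHLI and GSA pairs may not be fully separable, which limits their shares.

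**Figure D3:**
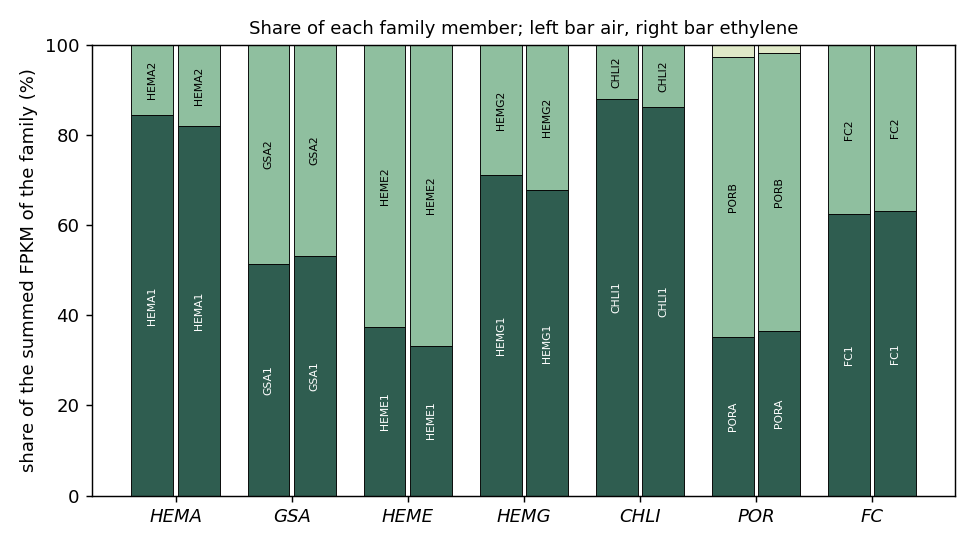
Share of the summed FPKM of each family held by each member, in percent, with the left bar for air and the right bar for ethylene. The divisions stand at almost the same height in both bars, with PORB at 62.0% and 61.5% and CHLI1 at 88.0% and 86.1%.

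Of the 31 genes, 28 were within 1.3-fold of their level in air, or 90.3%. Over all tested entries that name a gene the share was 62.5%, and over the 15275 of these within the members' range of mean FPKM (4.44 to 841) it was 71.4%. The median log2 change was 0.04 for the members and 0.01 for all tested entries. Outside 1.3-fold were PORA, PORB and CAO, which were also the only members with an unadjusted p of 0.05 or less. The 1.3-fold limit was set after these values were seen, and CAO, 1.31-fold lower, lay just beyond it. The share of 90.3% and the match with p are therefore description only. The test could not call small differences: of the entries within the members' range, none of the 10908 within 1.3-fold was called, and of the 1807 at 1.3-fold to 1.5-fold 20.8% were. For 26 of the 29 uncalled members the interval lay within a 2-fold change in either direction, so larger changes fall outside it. The 3 others were CHLI2, FLU and HY2.

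**Figure D4:**
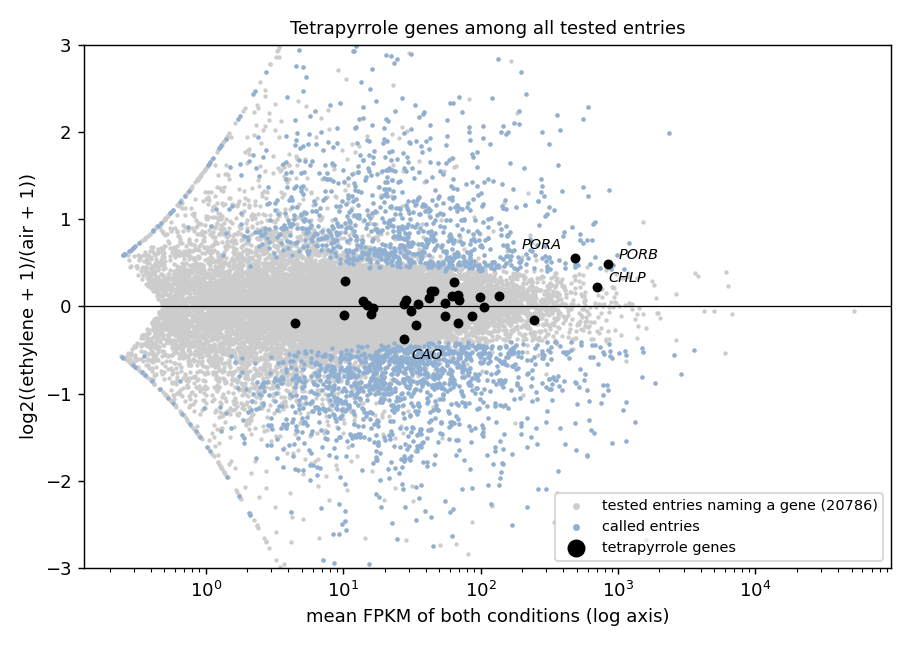
Log2((ethylene + 1)/(air + 1)) against mean FPKM on a log axis for all tested entries that name a gene (grey, called ones blue), with the 31 tetrapyrrole genes in black; 164 entries lie beyond the plotted range of 3 to either side. The black points cluster near 0, with PORA and PORB at 0.55 and 0.48 and CAO at -0.37.

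A further list of 32 genes covered the rest of tetrapyrrole metabolism, including minor paralogues, siroheme, heme a, chlorophyll-binding helpers and breakdown. Of the 27 that were tested, 1 rose and 2 fell, beside 11.3% of all tested entries called in either direction, so the count is near the background. LIL3.2 (AT5G47110), a light-harvesting-like protein that binds geranylgeranyl reductase and POR, went from 350 to 476 FPKM, a rise of 35.8%. The interval of its log2 ratio of 0.44 was 0.04 to 0.84, and the Cuffdiff q was 0.021. Its paralogue LIL3.1, at 57.4 and 67.3 FPKM, was not called. TSPO, a membrane protein that binds porphyrins and is induced by abscisic acid, fell from 236 to 113 FPKM, a log2 ratio of -1.07 (Cuffdiff q of 0.00088). CLH1, a chlorophyllase, fell 2.79-fold from 4.67 to 1.67 FPKM (q of 0.014). With the normal reference only the fall of TSPO was called, beside 5.78% of all tested entries.

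Chlorophyll breakdown otherwise gave no call. SGR1, which removes magnesium from chlorophyll, had 22.6 FPKM in air and 21.8 FPKM under ethylene. NYC1, a chlorophyll b reductase, was at 52.8 and 48.5 FPKM. The shared entry of PAO, pheophorbide a oxygenase, and AT3G44870 was at 21.9 and 20.4 FPKM. In the siroheme branch, which serves sulfite and nitrite reductases, UPM1 was at 38.5 and 47.8 FPKM and SIRB at 15.1 and 20.2 FPKM, with q values of 0.210 and 0.261. The 5 paralogues HEMA3, HEMB2, HO3, HO4 and CLH2 were not tested, with at most 0.388 FPKM in either condition.

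Transcripts of 18 transcription factors known to act on tetrapyrrole genes were listed beside the enzymes. Of these 17 were tested, 3 rose and 5 fell, against 4.79% of all tested entries higher and 6.50% lower. These lists were compared only by their counts, and were chosen with earlier results of these data known. EIN3 and EIL1, the transcription factors at the end of the ethylene pathway, were at 97.4 and 97.6 FPKM and at 48.5 and 47.6 FPKM, and neither was called. They are known to be controlled at the level of protein stability. PIF1 (PIL5 in the annotation), which represses light responses in the dark, fell from 37.4 to 26.8 FPKM (log2 ratio -0.48, Cuffdiff q of 0.032). PIF3 rose 2.64-fold from 51.6 to 136 FPKM, while PIF4 fell from 48.2 to 21.8 FPKM. PIF5, at 25.8 and 20.6 FPKM, was not called.

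The GARP-family factors GLK1 and GLK2, activators of chlorophyll and light-harvesting genes, both fell. GLK1 went from 12.7 to 5.40 FPKM, 2.34-fold lower, and GLK2 from 31.9 to 10.9 FPKM, 2.93-fold lower. RVE1, a MYB-like factor known to act on PORA, fell 2.51-fold from 12.9 to 5.14 FPKM. Of the GRAS factors of the HAM group, known to act on PORC, HAM1 rose 1.52-fold to 27.7 FPKM and HAM2 1.51-fold to 28.6 FPKM. HAM3, with a log2 ratio of 0.31, was not called. The remaining factors were not called: HY5 at 11.1 and 11.0 FPKM, HYH at 8.47 and 7.12, GNC at 11.1 and 9.37, FHY3 at 23.1 and 23.5, and FAR1 at 8.60 and 10.3. CGA1 was too low to be tested. With the normal reference PIF3 was also called higher and PIF4, GLK1, GLK2 and RVE1 lower, while the calls of PIF1, HAM1 and HAM2 were lost.

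The light-harvesting genes encode the proteins that bind most of the chlorophyll. Of 17 entries for 18 genes, 10 were called lower and none higher, beside 6.50% of all tested entries lower and 4.79% higher. All 17 had a lower value in ethylene than in air. Their median log2 change was -0.47. LHCB1.4 fell 3.08-fold from 328 to 107 FPKM, LHCB2.3 fell 2.28-fold, and LHCA1 went from 455 to 252 FPKM, a log2 ratio of -0.85. These were the called entries with the largest folds. LHCB1.3, the most abundant entry of the list, was at 4262 FPKM in air and 4112 FPKM under ethylene and was not called (Cuffdiff q of 0.925). With the normal reference 4 were lower, beside 5.78% of all tested entries called in either direction. No test between the lists was made, so the counts stand side by side only.

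**Figure D5:**
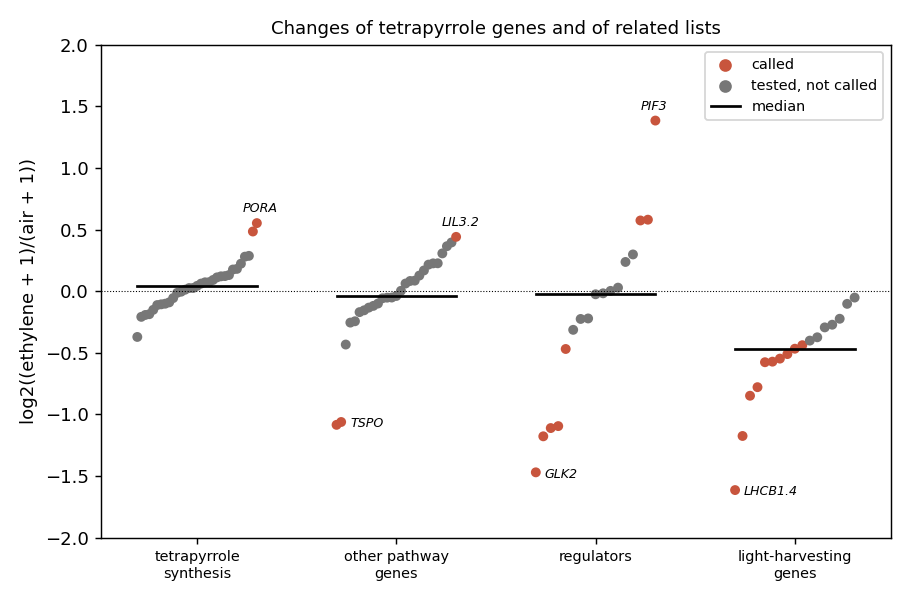
Log2((ethylene + 1)/(air + 1)) of the tested genes of 4 lists, 1 point per table entry in rising order within a list, coloured when called, with a bar at the list median. The tetrapyrrole genes gather around a median of 0.04 with PORA at the top, and the light-harvesting entries all lie below 0 with a median of -0.47.

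Markers of light exposure and of organs were read as a check on the labelled tissue. The early light-induced genes ELIP1 and ELIP2 were at 19.2 and 7.49 FPKM in air and at 11.3 and 4.57 in ethylene, and ELIP1 was called lower (Cuffdiff q of 0.026). PSBS, the third marker of light exposure, had 290 and 269 FPKM with no call. The 3 markers were thus not all low. Of the 5 root tip markers, SCR, SHR and WER were at 7.09 to 20.8 FPKM in air, and PLT1 and PLT2 under 1 FPKM. The shoot apex marker STM was at 4.36 and 3.94 FPKM, and WUS was listed at 0 in both conditions. The cotyledon-rich transcripts RBCS1A and RBCS3B summed to 4169 FPKM in air and 4735 in ethylene and were not called. Among seed markers SESA1 rose from 0.592 to 9.67 FPKM and OLEO1 fell from 48.4 to 29.3, and CRU3 was at 70.9 and 82.4. Any part of these in the PORA and PORB values was not tested, and in whole seedlings a change in the share of cells cannot be told apart from a change per cell.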

How the data were processed

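The authors deposited 1 gene table of ethylene against air. TopHat2 2.0.9, Cuffdiff 2.2.1 and the TAIR10 build are named in the submitters' processing notes. For parameters, annotation, normalization and strand setting, the value is not given in the sources used here. Per the file headers, the deposited values are FPKM (1 per condition), a test statistic (score), a p-value and a q-value. Depth per library is unknown, and no value per library was used. Of 21076 tested entries, 290 name no gene and were left out of counts. The deposited q matched a Benjamini-Hochberg adjustment over all tested entries to within 5.25e-07.

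Folds were recomputed from FPKM in Python 3.11.15 (numpy 2.4.6, pandas 2.3.3). Log2 changes used a pseudocount of 1 FPKM, and log2 ratios none. The deposited p and statistic differ in scale (the normal quantile of p exceeds the statistic by a median factor of 1.43), so calls were also made from the statistic with a normal reference. SEs from the statistic are the wider reading. The adjustment and SE steps were tested on simulated data.

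For a locus in several entries the entry naming it alone was taken, then that with the higher mean. Gene names, spans and promoters come from RefSeq's TAIR10.1. Of 31743 entries naming 1 annotated nuclear locus, 31742 overlapped it in that annotation. Named genes were all members and regulators, the called genes of the further list with SGR1, NYC1 and PAO, and the 3 light-harvesting genes with the largest called fold. Other named genes (LIL3.1, UPM1, SIRB, LHCB1.3, untested paralogues, overlapping and neighbouring genes) were added after their values were seen. Members and lists were chosen with earlier results of these data known. The 1.3-fold limit used to describe genes close to their air level was set after the values were seen.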

Additional observations from a re-analysis of the deposited data

How the results depend on the processing

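The deposited q of 0.05 called 2 tetrapyrrole genes. A q of 0.01 called 1 (PORA), and the normal reference and a minimum of 1.5-fold each called 0. The rises of PORA (0.55 on the log2 scale) and PORB (0.48) kept their direction under all alternatives. All of these reused the same pooled FPKM values and could not have reversed it, so the kept direction is no check on the rises. With the normal reference q was 0.101 for PORA and 0.315 for PORB, and at a q of 0.01 the call of PORB was lost (q of 0.026). In the further pathway list, 3 calls became 1 at a q of 0.01 and 1 with the normal reference. The regulators went from 8 calls to 5 with the normal reference. The light-harvesting list went from 10 to 4 with the normal reference and to 4 at a minimum of 1.5-fold. The smaller counts follow from the stricter rule in each case. The median log2 change of the tetrapyrrole genes ranged from 0.03 to 0.05 under other pseudocounts, a filter at 10 FPKM, centring and, chosen after seeing the data, leaving out PORA and PORB. No paired analysis was possible because the table holds 1 pooled value per condition, and for the same reason leaving out a replicate was not run. Unknown depth limits what can be said of low genes such as HY2 and CHLI2.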

Other observations

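The run AAATCTAATTCTC that PORA and PORB share upstream was also in the window of AT5G58010, annotated as LJRHL1-like 3, a gene of the root hair bHLH group. That gene was at 6.75 FPKM in air and 14.0 FPKM in ethylene, and the authors' deposited table gave it a Cuffdiff q of 0.0016. It was looked up after the run had been found, and whether the run acts in any of the 3 genes was not tested.

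Of the 31 tetrapyrrole genes, 11 have an entry whose span overlaps that of another entry, and in 2 of these, CHLI2 and CHLG, the other entry was called. Neither CHLI2 nor CHLG was called.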
